A study of Homo sapiens with 8 samples.

Results

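The guides described here target 8 human genes that act when the spliceosome recognises the branch point and the 3′ splice site: SF3A1, SF3A3, SF3B1, SF3B3, SF3B4, SF3B6, U2AF2 and SF1. They were chosen by gene symbol, as every guide of an SF3A, SF3B, PHF5A, U2AF or SF1 gene that was not typed as a non-essential control. PHF5A, SF3A2, SF3B2, SF3B5 and U2AF1 are not analysed here. The choice gave 490 of the 46829 guides, on 66 of 6735 exon-exon junctions and 8 of 1250 genes. The screen was made in A375 cells, an established melanoma line, from a monoclonal line (1 clone) of genotype TetO-RfxCas13d, in which doxycycline induces the RNA-cutting nuclease RfxCas13d. All cells, those of Day 0 included, carried the nuclease and a lentiviral guide library. Guide cassettes were amplified from genomic DNA in 8 libraries, 2 from untreated cells (Day 0) and 2 from each of Day 7, 14 and 21, when the cells had been kept in 1 ug/ml doxycycline. The deposited value of a guide is a log2 fold change from the Day 0 library of the same replicate. On this scale a value of −1 is a loss to 1 part in 2. What a value of 0 stands for depends on the scaling, which is not given. At Day 21 the median was −0.018 over the non-targeting guides and −0.31 over all guides. No gene expression was measured, so how far each guide lowered its target RNA is not known, and no guide sequences were available to print.

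SF1 binds the branch point sequence of an intron first, while the U2AF heterodimer, whose large subunit is U2AF2, binds the polypyrimidine tract beside it. The U2 small nuclear ribonucleoprotein then takes over the branch point through its SF3a and SF3b complexes. SF3a consists of SF3A1, SF3A2 and SF3A3. SF3b is built around SF3B1, a large scaffold of helical repeats that holds the branch point adenosine, and SF3B3 is its other large scaffold. SF3B4 is an RNA-binding subunit, and SF3B6 (p14) sits on SF3B1 close to the branch point.

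The table typed 6 of the 8 genes (475 guides) as essential under Cas13 and 2, SF3B4 and SF3B6, as not essential. The criterion of that type is not stated in the sources used here and may rest on these same values. The numbers of junctions and guides differed widely between the genes. SF3B3 had 174 guides on 23 junctions, SF3A1 111 on 14, SF3A3 81 on 11, U2AF2 49 on 8, SF1 40 on 5 and SF3B1 20 on 3. SF3B4 had 8 guides and SF3B6 had 7, on 1 junction each. All 66 junctions lie inside the RefSeq span of their gene (GRCh38.p14), and coordinates are given as the deposited table lists them. The submitters' processing notes name the build hg38. Read depth was not given. The values are ratios of whole numbers, which yields for each guide a lower bound on its Day 0 number that includes any pseudocount. For the 490 guides this implied number had a median of 101 in replicate 1 (range 15 to 204) and 135 in replicate 2 (range 11 to 389).

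By gene mean, SF3B1 lost its guides by far the most, and U2AF2 and SF3A3 followed. SF3A1, SF3B3 and SF1 lost part of theirs, and SF3B4 and SF3B6 stayed near 0. These means cover unlike parts of the genes. The SF3B1 junctions all lie towards its 5′ end, at 197420542 to 197434971 of a RefSeq span of 197389784 to 197435093 (minus strand). Those of SF3B3 run from 70526726 to 70571672 of 70523816 to 70577668. The 3rd SF3A3 junction had a Day 21 mean of −5.04, within the range of the SF3B1 junction means (−5.35 to −3.90). At Day 21, 6 of the 8 genes were lower than at Day 0 (limma on gene means, Benjamini-Hochberg adjusted p under 0.05 over 1223 genes). The background share of genes called lower on that day was 20.8%. The 6 called genes are the 6 typed essential.

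SF3B1 had gene means of −1.60 and −3.34 at Day 7, −4.15 and −5.23 at Day 14 and −4.50 and −5.27 at Day 21 in replicates 1 and 2. Its Day 21 mean was −4.89 ± 0.55 (SD, n = 2; SE 0.25, limma adjusted p 0.0107), rank 5 from the lowest of 829 scored genes, those with a GeCKO gene score. U2AF2 had means of −0.31 and −1.07, then −1.82 and −2.07, then −2.14 and −2.15, with a Day 21 mean of −2.15 ± 0.0056 (SD, n = 2; SE 0.14, adjusted p 0.0107). At Day 21 both replicates of each gene were well below 0, and the SF3B1 values did not overlap those of any of the other 7 genes.

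SF3A3 had means of −0.25 and −0.74 at Day 7, −1.64 and −1.82 at Day 14 and −1.62 and −1.95 at Day 21. SF3A1, its partner in SF3a, had −0.08 and −0.34, then −0.92 and −0.84, then −1.22 and −0.93. The Day 21 means were −1.78 ± 0.23 for SF3A3 (SE 0.17, adjusted p 0.0140) and −1.08 ± 0.20 for SF3A1 (SE 0.16, adjusted p 0.0286). SF3A3 was lower than SF3A1 in each of the 6 libraries.

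SF3B3 had means of −0.13 and −0.40 at Day 7, −0.98 and −1.03 at Day 14 and −1.05 and −1.01 at Day 21, with a Day 21 mean of −1.03 ± 0.031 (SE 0.14, adjusted p 0.0242). SF1 had −0.04 and −0.19, then −0.88 and −0.55, then −0.96 and −0.68, with a Day 21 mean of −0.82 ± 0.20 (SE 0.16, adjusted p 0.0494). SF1 lay just inside the threshold. The call was lost in 5 of the 9 alternatives run: centring on non-targeting guides (adjusted p 0.0640) or on all guides (0.135), the median of guides (0.280), no minimum of guides (0.0552) and robust empirical Bayes (0.0519).

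SF3B4 had means of 0.32 and −0.07 at Day 7, 0.28 and −0.32 at Day 14 and 0.36 and −0.30 at Day 21. Its replicates lay on opposite sides of 0 on each day, and the Day 21 mean was 0.026 ± 0.47 (SE 0.23, adjusted p 0.947). SF3B6 had 0.11 and −0.03, then 0.10 and 0.12, then −0.24 and 0.40, with a Day 21 mean of 0.081 ± 0.46 (SE 0.22, adjusted p 0.832). Neither gene was called at any day, but each rests on the guides of a single junction, which makes these the least covered of the 8 genes.

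Neighbours in the Day 21 order were compared within each replicate. U2AF2 was above SF3B1 by 2.74 ± 0.54 (SD, n = 2), from differences of 2.36 and 3.12. SF3A3 was above U2AF2 by 0.36 ± 0.23, SF3A1 above SF3A3 by 0.71 ± 0.43, SF1 above SF3B3 by 0.21 ± 0.17 and SF3B4 above SF1 by 0.85 ± 0.67, each more than the spread between replicates. SF3B3 and SF3A1 differed by 0.047 ± 0.17 and SF3B6 and SF3B4 by 0.055 ± 0.92, less than that spread, with opposite signs in the replicates. These pairs were not tested, as an exact two-sided sign-flip test over 2 replicates cannot go below 0.5.

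Most of the loss seen at Day 21 was present by Day 14. At Day 7 a single gene, SF3B1, was called lower (mean −2.47 ± 1.23, SD, n = 2; SE 0.34, limma adjusted p 0.00808), against a background of 3.92%. U2AF2 at −0.69 (adjusted p 0.104) and SF3A3 at −0.49 (adjusted p 0.133) did not pass. At Day 14 the same 6 genes as at Day 21 were called lower, against a background of 22.1%. The differences between days were tested themselves, within each replicate, so that the Day 0 library cancels. From Day 7 to Day 14 6 of the 8 genes fell (background 21.1%; 4 with the replicate block), as did 6 from Day 7 to Day 21 (background 23.5%). From Day 14 to Day 21 limma called 0 of the 8 genes (background of genes called lower 1.06%), with 0 at an unadjusted p under 0.05. Between these days the gene means changed by between −0.20 for U2AF2 and 0.044 for SF3B4. An implied number of 1, the lowest a library can show, limits the later change that can be seen. At Day 14 it was already shown by 3 of the 20 SF3B1 guides in replicate 1 and 10 in replicate 2. Among the 490 guides it was shown by 12 and 36.

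The replicates differed in how early the loss appeared. All 8 gene means were lower in replicate 2 than in replicate 1 at Day 7, against 5 of 8 at Day 14 and 4 of 8 at Day 21. For SF3B1, the Day 7 value was 35.5% of the Day 21 value on the log2 scale in replicate 1 and 63.4% in replicate 2. The corresponding shares were 14.3% and 49.8% for U2AF2, 15.5% and 37.8% for SF3A3, and 12.6% and 39.7% for SF3B3. Guides at an implied number of 1 limit the Day 21 values behind these shares. Among the SF3B1 guides they were 7 in replicate 1 and 9 in replicate 2. Over the other 43384 scored guides the Day 7 median was 0.0079 in replicate 1 and −0.10 in replicate 2, while the non-targeting guides stood at −0.0039 and 0.020. The part of library differences in this was not tested. The SF3B1 call at Day 7 was lost in 5 of the 9 alternatives run, with adjusted p-values of 0.206 to 0.310.

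The scaffold SF3B1 was depleted at each of its 3 common junctions on the minus strand of chromosome 2. Junctions are numbered from the 5′ end of the gene among those in the table. The first, chr2:197423974-197434971, had Day 21 means of −4.64 and −5.18 in the replicates. The second, chr2:197421133-197423807, had −3.47 and −4.34, and the third, chr2:197420542-197421028, −4.87 and −5.83. The second junction was higher than the mean of the other 2 by 1.23 (SE 0.36, limma adjusted p 0.0123). The third was lower than its neighbours by 0.94 (SE 0.36, limma adjusted p 0.0589), which did not pass. Such tests of a junction against the others cover the spread between the libraries, not that between the guides of a junction.

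The third junction had the lowest Day 7 means of the SF3B1 junctions, but this difference in time was not tested. At Day 7 it was not itself called lower (mean −3.68 ± 1.88, SD, n = 2, limma adjusted p 0.0708). Its Day 7 means were −2.35 and −5.01, against −1.03 and −2.26 for the first junction and −1.23 and −2.16 for the second. At Day 14 the third junction stood at −4.75 and −6.19, so that in replicate 2 most of its loss was already present after a week.

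All 20 SF3B1 guides were at −1 or lower in both replicates at Day 21, against 17.1% of all guides, and 19 of them were called lower (limma, background 11.1%). The lowest, guide number 7 of the first junction, had −0.80 and −4.26 at Day 7, −3.03 and −7.85 at Day 14 and −6.11 and −7.57 at Day 21. Its Day 0 implied numbers, 72 and 174, had both shrunk to 1. The highest, number 6 of the second junction, had 0.056 and −0.80, then −2.99 and −1.73, then −2.61 and −1.69 (adjusted p 0.0981), and was the guide that was not called. An implied number of 1 is the lowest a library can show. At Day 21 it was shown by 7 SF3B1 guides of the first replicate and 9 of the second, so their loss may exceed the values given.

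SF3B3, the other large scaffold of SF3b, had the most junctions, and their means differed along its length. The gene lies on the plus strand of chromosome 16 and its 23 junctions are single_unique. Of the 23, 9 were called lower at Day 21 (background 25.3%). Of these, 6 follow each other as the 11th to the 16th junction, from 70555206 to 70565064. Their means in replicates 1 and 2 were −3.38 and −1.50 for the 11th, −2.53 and −2.48 for the 12th and −3.74 and −2.63 for the 13th. The 14th had −1.58 and −2.01, the 15th −1.78 and −2.48 and the 16th −3.24 and −3.05. All 12 values in this stretch were below −1.

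Immediately downstream the values were back near 0. The 17th junction, chr16:70565270-70565367, had 0.19 and −0.21, and the 18th, chr16:70565524-70567410, had 0.61 and 0.47. Over the 48 guides of the stretch the mean was −2.71 and −2.36, and over the 126 guides of the other 17 junctions it was −0.42 and −0.49. These limits were drawn after the values were seen, so no test is given for them. Outside the stretch, the 2nd junction (−1.60 and −2.72), the 6th (−0.80 and −1.11) and the 19th (−1.07 and −2.39) were also called lower.

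Single SF3B3 junctions were then set against the mean of the other junctions of the gene. In this test 6 junctions were lower (background 11.8%), the 2nd, 11th, 12th, 13th, 15th and 16th. Another 6 were higher (background 9.57%), the 3rd, 7th, 17th, 18th, 20th and 22nd (limma, adjusted p under 0.05). With the replicate number as a block, 8 were lower and 10 higher. The 13th differed most, at −3.18 against −0.88 for the others (difference −2.30, SE 0.37, adjusted p 1.99e-05). The 18th stood at 0.54 against −1.05 (difference 1.59, SE 0.36, adjusted p 0.00129), on 4 guides.

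The lowest SF3B3 guide, number 4 of the 13th junction (chr16:70557029-70560468), had −1.84 and −5.52 at Day 7, −4.49 and −8.23 at Day 14 and −7.42 and −6.96 at Day 21 (limma adjusted p 2.02e-07). Its implied number fell from 179 to 1 and from 227 to 2. The highest SF3B3 guide, number 6 of the 20th junction (chr16:70568495-70569042), was at −0.14 in replicate 1 and 4.53 in replicate 2 at Day 21 (adjusted p 0.147). Behind the 4.53 is a rise of the implied number from 31 to 783, while it moved from 67 to 58 in the other replicate, so the replicates disagreed.

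No loss was called for SF3B4 and SF3B6, the smaller SF3b subunits analysed here, each on 1 junction. With the median of guides SF3B4 stood at −0.33 at Day 21 (limma adjusted p 0.425). The SF3B4 junction, chr1:149926918-149927165 on the minus strand, had 8 guides, of which 3 were below 0 in both replicates at Day 21 (38.7% of all guides in the table) and 0 were at −1 or lower in both. Its lowest guide, number 6, had −0.46 and −2.36 (adjusted p 0.422), and its highest, number 3, had 2.14 and −0.51 (adjusted p 0.766). The SF3B6 junction, chr2:24067851-24068320 on the minus strand, had 7 guides, of which 1 was below 0 in both replicates and 0 were at −1 or lower in both. Its lowest guide, number 6, had −1.35 and 0.32 (adjusted p 0.879), and its highest, number 3, had 1.33 and 0.33 (adjusted p 0.746). The replicates of these 4 guides lay far apart or on opposite sides of 0.

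In SF3a, SF3A3 was called lower at 8 of 11 junctions (background 25.3%) on the minus strand of chromosome 1. Its 3rd junction, chr1:37981811-37984168, was the lowest, with −1.56 and −2.41 at Day 7, −4.64 and −5.90 at Day 14 and −4.66 and −5.42 at Day 21. It was the single junction of the 8 genes called lower at Day 7 (limma adjusted p 0.0389, background 0.625%). All 6 of its guides were at −1 or lower in both replicates at Day 21. The 10th junction, chr1:37968134-37969353, followed with −3.81 and −3.90, and all 8 of its guides were below 0 in both replicates.

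At the 5′ end of SF3A3 the junction means lay nearer 0. The 1st junction, chr1:37989595-37989869, had 0.65 and −0.12 at Day 21, and the 2nd, chr1:37987678-37987783, had −0.39 and −0.31. Against the other junctions of the gene the 1st was higher by 2.32 (SE 0.36, adjusted p 1.18e-05), the 2nd by 1.64 (SE 0.36, adjusted p 0.00104) and the 6th also passed (adjusted p 0.00243). The 3rd was lower by 3.52 (SE 0.36, adjusted p 1.23e-08) and the 10th by 2.21 (SE 0.36, adjusted p 2.14e-05). Among the other junctions, the 9th had −1.98 and −3.53, the 8th −1.40 and −2.43, and the 5th −1.63 and −2.18.

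The lowest SF3A3 guide, number 2 of the 7th junction (chr1:37978827-37978987), had −6.99 and −7.44 at Day 21 (adjusted p 2.02e-07), where its implied numbers of 133 and 159 had both come down to 1. That junction had means of just −1.68 and −1.75, and its highest guide averaged 0.021. The highest SF3A3 guide, number 4 of the 11th junction (chr1:37960175-37968043), had 1.58 and 1.86 (adjusted p 0.241), and its implied number rose from 114 to 327 and from 142 to 564.

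SF3A1, the second SF3a subunit in the table, was called lower at 7 of 14 junctions (background 25.3%) on the minus strand of chromosome 22. The 4th junction, chr22:30342879-30344932, was the lowest, with −0.51 and −1.57 at Day 7, −2.70 and −3.84 at Day 14 and −2.78 and −3.70 at Day 21. The 11th had −2.40 and −2.58 and the 14th −3.32 and −1.49, so the 14th was far less depleted in replicate 2. The 8th junction, chr22:30340381-30340694, lay above 0 in both replicates, at 0.21 and 0.74, as did the 10th, at 0.29 and 0.13.

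Against the other SF3A1 junctions, the 4th was lower by 2.34 (SE 0.38, limma adjusted p 1.95e-05), and the 9th, 11th and 14th also passed as lower. The 8th was higher by 1.66 (SE 0.36, adjusted p 0.000845) and the 10th by 1.38 (SE 0.36, adjusted p 0.00543). The lowest SF3A1 guide, number 7 of the 4th junction, had −0.76 and −3.16 at Day 7, −6.91 and −7.68 at Day 14 and −6.52 and −7.41 at Day 21 (adjusted p 2.11e-07). It was at the lowest implied number, 1, in both replicates from Day 14 on. The highest, number 6 of the 10th junction (chr22:30337897-30338788), had 1.24 and 2.89 (adjusted p 0.126).

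U2AF2, the large U2AF subunit on the plus strand of chromosome 19, was depleted at each junction that was tested. All 6 junctions with at least 3 guides were called lower (background 25.3%), and none had a Day 21 mean above −0.94 in either replicate. The 3rd junction, chr19:55660619-55661037, had −3.91 and −2.41, the 6th, chr19:55668586-55668669, −2.35 and −3.70, and the 1st, chr19:55659345-55660176, −2.83 and −2.91. The 5th, 7th and 8th were less depleted, with replicate means between −2.16 and −0.94. The 2nd and 4th junctions had 2 guides and 1 guide, too few for the test, with means of 0.14 and −2.34 and of −0.49 and −2.51.

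Within U2AF2 the 3rd junction was lower than the others by 1.11 (SE 0.39, limma adjusted p 0.0408) and the 8th, chr19:55669692-55673933, higher by 1.09 (SE 0.36, adjusted p 0.0295). The lowest guide, number 4 of the 3rd junction, had −0.95 and −2.01 at Day 7, −5.00 and −2.65 at Day 14 and −6.61 and −6.07 at Day 21 (adjusted p 5.24e-07). The highest, number 4 of the 5th junction (chr19:55663744-55668506), had 1.56 and −0.45 (adjusted p 0.867). No U2AF2 guide averaged above 0.56 at Day 21.

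SF1, the branch point binding protein, was measured at 5 common junctions on the minus strand of chromosome 11, of which 3 were called lower (background 25.3%). The 4th, chr11:64769129-64769222, had −2.11 and −1.14 at Day 21, the 3rd, chr11:64769338-64769425, −1.19 and −1.64, and the 1st, chr11:64770053-64770255, −1.77 and −0.58. The 2nd, chr11:64769609-64769963, had 0.18 and 0.013 and the 5th, chr11:64768286-64769021, 0.071 and −0.051. The 2nd was higher than the other SF1 junctions by 1.15 (SE 0.36, limma adjusted p 0.0205) and the 5th by 1.04 (SE 0.36, adjusted p 0.0373), while the 4th was lower by 1.01 (SE 0.37, adjusted p 0.0480).

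The SF1 gene mean rested on few guides. Of its 40 guides 6 were called lower (15.0%, background 11.1%), a share near that of the whole table, and the median guide stood at −0.56 and −0.26, above the mean. The lowest, number 4 of the 1st junction, had −0.31 and −1.79 at Day 7, −7.18 and −3.84 at Day 14 and −3.62 and −7.38 at Day 21 (adjusted p 1.40e-05). Its replicates reached an implied number of 1 on different days, replicate 1 at Day 14 and replicate 2 at Day 21. The highest, number 1 of the 3rd junction, had 1.57 and 1.79 (adjusted p 0.261), in a junction whose lowest guide averaged −5.27. SF1 was not alone in having a median above its mean. The median guide stood at −0.62 and −0.37 for SF3A1, against means of −1.22 and −0.93. For SF3B3 it stood at −0.66 and −0.38, against −1.05 and −1.01. With the median of guides SF3A1 and SF3B3 also lost the Day 21 call (limma adjusted p 0.214 and 0.209).

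Across the 8 genes, 36 of the 64 junctions with at least 3 guides were called lower at Day 21 (limma, background 25.3%) and 36 at Day 14 (background 21.9%). Without SF3B1, 33 junctions remained at Day 21. A total of 31 junctions were at −1 or lower in both replicates, against a background of 18.0%. None was called higher at Day 21 (background 0.937%), and 0 were higher at an unadjusted p under 0.05. With the replicate number as a block, 41 were lower and 2 were higher, the SF3A1 8th and the SF3B3 18th. At junction level the empirical Bayes step gave the same standard error, 0.36, to every junction, whether its replicates lay close or apart.

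Junction means of a single gene also differed from each other, judged by the spread between libraries and not by that between guides. In the test of each junction against the others of its gene, 14 of 62 were lower (background 11.8%) and 15 were higher (background 9.57%). With the replicate block the total of 29 became 50. Of the squared deviations of the 490 Day 21 guide means, 16.6% lay between genes, 26.8% between junctions of a gene and 56.7% between guides of a junction. The share between junctions that guide spread alone would give was not computed. The SD over the guides of a junction had a median of 1.56. Of the tested junctions, 24 had no guide called lower and 2 had every guide called lower, both in SF3B1. The shares of such junctions over the whole table were not computed.

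At guide level, 43 of the 490 were called lower at Day 7 (8.78%, background 2.10%), 117 at Day 14 (23.9%, background 7.96%) and 125 at Day 21 (25.5%, background 11.1%). The Day 21 calls comprised 19 of 20 SF3B1 guides (95.0%), 19 of 49 for U2AF2 (38.8%), 27 of 81 for SF3A3 (33.3%), 37 of 174 for SF3B3 (21.3%), 17 of 111 for SF3A1 (15.3%) and 6 of 40 for SF1 (15.0%). No guide was called higher on any day by limma (background at Day 21 0.218%). At an unadjusted p under 0.05, 9 were higher at Day 7, then 3 and 6 on the later days. The background at this looser threshold was not computed. The fit with the replicate block called 14 higher at Day 21. At −1 or lower in both replicates were 49 guides at Day 7 (10.0%, background 2.55%), 151 at Day 14 (30.8%, background 13.2%) and 162 at Day 21 (33.1%, background 17.1%). Among the 490, 9 guides were at 1 or higher in both replicates at Day 21 (1.84%, background 2.73%), spread over SF3B3, SF3A1, SF3A3 and SF1.

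Replicates were set side by side over guides and junctions, which share their library and, within a gene, their target. Pearson's r between the replicates, from the earliest day to the latest, was 0.663, 0.723 and 0.653 over the 490 guides. Over the 66 junction means it was 0.897, 0.895 and 0.833. At Day 21, 161 of the 490 guides had opposite signs in the replicates, a share not computed for the whole table. An implied number of 1 was seen that day for 30 guides of the first replicate and 37 of the second. All of them were in the 6 genes that were called, which hold 475 of the 490 guides. Among all 46829 guides it was seen for 1419 and 1460.

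Compared with the rest of the library, the share of guides at −1 or lower at Day 21 was 46.2% ± 0.74 (SD, n = 2) for the 6 genes typed essential. It was 37.8% ± 1.6 for the other 27330 guides typed essential and 16.8% ± 0.59 for the non-targeting guides. The difference to the other guides typed essential was 7.85 percentage points in replicate 1 and 9.01 in replicate 2. Without SF3B1 it was 5.50 and 6.63. Both differences exceeded the spread between replicates. They were not tested, as the exact two-sided sign-flip test cannot go below 0.5 here. For SF3B4 and SF3B6 together the share was 16.7% ± 4.7, within its own spread of the non-targeting level.

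The GeCKO gene score, a deposited value per gene named after a Cas9 knockout library, was −1.70 for SF3B1 and −1.61 for SF1, the 2 lowest of the 8. It was −1.27 for SF3B4 and −1.16 for U2AF2, and SF3A1, SF3A3, SF3B6 and SF3B3 followed between −1.03 and −0.86. Across the 8 genes its Spearman's rho with the Day 21 mean was 0.33, given as a description. SF1 and SF3B4 had low scores beside a small loss of guides for SF1 and no called loss for SF3B4.

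Other proteins of the U2 particle and of 3′ splice site recognition were taken from a list of 15 genes, of which 6 were in the table. Of these 2 were lower at Day 21 and 0 higher (limma, adjusted p under 0.05), against 20.8% of all genes called lower, so the count is close to that share. PUF60, a U2AF-related factor, had −1.62 and −1.64 (adjusted p 0.0126), and RBM17, which binds SF3B1, had −1.31 and −1.36 (adjusted p 0.0162). The U2 subunit SNRPA1 had −0.66 and −0.43 (adjusted p 0.0981) and the helicase DHX15 0.014 and −0.037 (adjusted p 0.958). SMNDC1 had −0.34 and 0.14, and SNRPB2, typed as a non-essential control, 0.062 and 0.27 on 3 guides. Of 7 Sm ring genes, which form the core of U2 and other particles, 2 were in the table and both were lower (the same background of 20.8%). SNRPF had −3.06 and −5.44 (adjusted p 0.0315) and SNRPD1 −1.31 and −1.72 (adjusted p 0.0192).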

How the data were processed

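The authors deposited a single table of log2 fold changes, 1 for each guide, day and replicate, and a GeCKO gene score per gene, per the file headers. The submitters' processing notes name cutadapt 3.5, Bowtie 1.1.2 and hg38. The counter, scaling, pseudocount and filters, and how the score was made, are not given in the sources used here. Day 0 enters as the reference of its own replicate.

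Values were averaged over the guides of a junction or gene with at least 3 guides. Each day was fitted alone with limma 3.58.1 in R 4.3.3, against 0, on the whole table, with Benjamini-Hochberg adjustment over all features. Calls have an adjusted p under 0.05. The fits were also run on simulated data with changes of known size, drawn independently from the fit's own model. That simulation held neither the lowest implied number nor the shared Day 0 library, so it cannot show how the fits handle them. The file headers call the replicates biological, but the labels do not say that they were separate cultures. The p-values therefore cover only the spread between these libraries. Replicate numbers pair the libraries through the shared Day 0 library, and deviations of the same replicate correlated at 0.411 to 0.647 between days. The members and gene lists were chosen with earlier results of these data known. A listed gene is not reported here. Named guides are the lowest and the highest of each gene at Day 21. Alternatives were other centrings, guide medians, robust empirical Bayes, a fit of all days together, the replicate block, a minimum implied Day 0 number of 50 and no minimum of guides.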

Additional observations from a re-analysis of the deposited data

Results flagged for a closer look

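The fold change differed between time points, by a test of the difference itself, for the 6 genes typed essential (limma on the within-replicate difference, adjusted over 1223 genes). From Day 7 to Day 14 the difference was −2.22 for SF3B1 (SE 0.19, adjusted p 0.000152), −1.26 for U2AF2 (adjusted p 0.00168) and −1.24 for SF3A3 (adjusted p 0.00113). In the same week it was −0.74 for SF3B3 (adjusted p 0.0126), −0.67 for SF3A1 (adjusted p 0.0211) and −0.61 for SF1 (adjusted p 0.0418). From Day 7 to Day 21 it was −2.42 for SF3B1 (SE 0.26, adjusted p 3.24e-05), −1.46 for U2AF2, −1.29 for SF3A3, −0.87 for SF3A1, −0.76 for SF3B3 and −0.71 for SF1, with adjusted p-values of at most 0.0351. With the replicate block SF1 (adjusted p 0.0673) and SF3A1 (0.0521) lost the Day 14 call and the other 4 genes kept it. In the fit of all days together each of the 6 lost it, with adjusted p-values from 0.0580 for SF3A3 to 0.133 for SF3B1. From Day 7 to Day 21 the block kept all 6 calls, and the fit of all days lost those of SF1 (0.0513) and SF3B1 (0.0647). Every one of these differences was negative in both replicates. The decline from Day 7 to Day 21 was larger in replicate 1 than in replicate 2 for each of the 6, for example −2.90 against −1.93 for SF3B1 and −1.84 against −1.08 for U2AF2. At Day 21, 7 SF3B1 guides of replicate 1 and 9 of replicate 2 were at an implied number of 1. This limits the decline that can be seen for SF3B1. The cause of the replicate difference was not tested.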

How the results depend on the processing

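No tested gene or junction mean that was called changed direction under the alternatives run. The number of genes called lower depended on the summary, the centring and the fit. At Day 21 it was 6, but 0 with the median of the guides (3 at an unadjusted p under 0.05) and 2 after centring on all guides. At Day 14 it was 6, but 3 with the median. At Day 7 it was 1, but 2 with the median and 0 in the fit of all days, after centring on all or on control guides, with robust empirical Bayes and when guides with implied Day 0 numbers below 50 were dropped (3 to 4 unadjusted in these). From Day 7 to Day 21, 6 genes became 1 with the median, 2 after centring on all guides and 3 on control guides. From Day 7 to Day 14, 6 became 2 with the median, 3 after centring on all guides and 0 in the fit of all days (6 unadjusted). The replicate block called 6 genes at Day 14 and Day 21, 4 from Day 7 to Day 14, and 50 junctions apart from their gene instead of 29. It also brought 7 more junctions past the threshold against Day 0, and it ended no call of a gene or junction mean on a single day. Without SF3B1, an alternative chosen after seeing the data, the Day 21 share of guides at −1 or lower went from 45.3% to 43.0%. Leaving out either replicate gave a Day 21 share of 44.9% to 45.7%, whereas at Day 7 the share was 11.6% in replicate 1 and 25.9% in replicate 2, and with 1 replicate no limma test is possible, as no residual degree of freedom is left. Guides at an implied number of 1 set a floor on measurable loss, mostly in SF3B1, SF3A3, SF3A1 and SF3B3.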

Other observations

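Guides of a junction carry numbers from 1 to 8, whose meaning is not given in the sources used here. At Day 21 the 247 guides numbered 3 to 6 had a median of −0.83 in replicate 1 and −1.15 in replicate 2, and the 243 guides numbered 1, 2, 7 and 8 had −0.70 and −0.48. Among the other scored guides the medians were −0.37 and −0.32 against −0.34 and −0.28. This split was chosen after the values were seen and was not tested.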
